A study of Mus musculus with 2 samples.

Results

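Plasma cells, the antibody-secreting end stage of the B cell lineage, were found among spleen cells that had been sorted as Treg cells, and 55 of the 16424 cell barcodes that passed the filters were of this kind. They were chosen by counts of unique molecular identifiers (UMIs, each one captured transcript): at least 500 detected genes, at most 10% mitochondrial counts, at least 20 UMIs of Jchain, at least 3 of Xbp1, at least 2 of Mzb1 and at most 1 of Cd3d, Cd3e and Cd3g together. The 3 positive genes therefore describe the choice and are no result. There were 45 plasma cells among 8634 barcodes of Foxp3YFP-Cre Kmt2dfl/fl mice (here fl/fl) and 10 among 7790 barcodes of Foxp3YFP-Cre Kmt2d+/+ mice (here +/+).

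In both groups the Foxp3 locus drives Cre recombinase with a yellow fluorescent protein, so Cre is made where Foxp3 is expressed, and the fl/fl mice also have floxed Kmt2d alleles. Kmt2d encodes a histone H3 lysine 4 methyltransferase. Each group was 1 droplet-based 10x Genomics 3' library of splenic CD4+FoxP3+ cells pooled from 3 mice, with no replicate, so nothing below is a test between groups, and the cells cannot be assigned to a mouse. The ages of the mice were not given in the labels. All intervals are 95% intervals that cover counting error only.

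Plasma cells turn much of their transcription over to immunoglobulin. The factors Prdm1 (Blimp-1), Irf4 and Xbp1 silence the B cell programme and enlarge the endoplasmic reticulum, where heavy and light chains are folded and glycosylated and, in IgM and IgA, joined by the J chain that Jchain encodes. Each cell expresses 1 rearranged heavy chain and 1 rearranged light chain, and the heavy chain constant gene sets the antibody class. In the spleen, new plasma cells that still divide stand beside older ones that do not.

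The V gene segments shown here are the pair found in more plasma cells than any other. They are the last coding bases of the germline segments in the GENCODE annotation of GRCm38, Ighv1-85 (chr12:116000028-116000327, minus strand, 300 bases) and Igkv19-93 (chr6:68736297-68736591, minus strand, 295 bases). Capitals mark bases that differ from the annotated segment of the same locus with the fewest differences when the ends are lined up without gaps, which is Ighv1-84 for the heavy chain (20 differences, 93.3% identity) and Igkv10-94 for the kappa chain (64 differences, 78.3% identity).
Ighv1-85: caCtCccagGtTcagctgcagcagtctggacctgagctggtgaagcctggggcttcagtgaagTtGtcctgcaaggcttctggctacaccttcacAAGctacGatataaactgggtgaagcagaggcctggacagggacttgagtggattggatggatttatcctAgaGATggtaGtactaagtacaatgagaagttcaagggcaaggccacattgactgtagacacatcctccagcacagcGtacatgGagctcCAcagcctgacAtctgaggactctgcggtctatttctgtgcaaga
Igkv19-93: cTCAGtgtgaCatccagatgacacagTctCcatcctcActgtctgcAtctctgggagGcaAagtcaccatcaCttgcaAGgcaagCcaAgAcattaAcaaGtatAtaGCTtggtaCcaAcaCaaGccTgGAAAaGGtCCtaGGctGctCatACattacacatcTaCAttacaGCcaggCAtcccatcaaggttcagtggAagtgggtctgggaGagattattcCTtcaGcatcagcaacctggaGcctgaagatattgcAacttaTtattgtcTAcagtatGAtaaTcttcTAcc

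The label was checked against genes that the rule did not use. Beside the 1082 fl/fl and 454 +/+ B cells of the same libraries (at least 2 Cd79a and 1 Ms4a1 UMIs, fewer than 5 Jchain UMIs, no Cd3 UMI), 13 of 16 measured plasma cell markers were at least 2-fold higher in plasma cells in both libraries and none was lower. Over all 3665 measured genes, 17.0% were higher and 21.7% lower by the same rule of size. Sdc1, the plasma cell surface proteoglycan CD138, was at 160 CPM (counts per 1000000 UMIs outside immunoglobulin genes) in fl/fl plasma cells against 4.21 in fl/fl B cells, and at 91.7 against 2.01 in the +/+ cells. Prdm1 was at 177 against 11.5 CPM in fl/fl and at 154 against 10.0 CPM in +/+. Tnfrsf17, the receptor BCMA for the survival factor APRIL, had 78 UMIs in the fl/fl and 23 in the +/+ plasma cells, and 0 in the B cells of both libraries. Irf4, which B cells also express, was at 231 against 177 CPM in fl/fl and at 242 against 168 CPM in +/+, under the 2-fold limit in both.

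The B cell programme was low. All 21 measured B cell genes and all 10 measured MHC class II genes were at least 2-fold lower in plasma cells than in B cells of both libraries. The B cell genes include Cd79a and Ms4a1, which were used to choose the B cells, so for them this is no result. Pax5, the factor that maintains B cell identity, had 3 UMIs in 1 of 45 fl/fl plasma cells and none in the 10 +/+ plasma cells, against 559 CPM in fl/fl and 581 CPM in +/+ B cells. Ms4a1 (CD20) was at 35.5 against 1136 CPM in fl/fl and at 11 against 1036 CPM in +/+, although this gene was also used to choose the B cells. The antigen receptor subunit Cd79b was lower by less, at 611 against 1267 CPM in fl/fl and 312 against 1178 CPM in +/+.

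The secretory machinery was high. Of 25 measured chaperones and folding enzymes of the endoplasmic reticulum, 23 were at least 2-fold higher in plasma cells than in B cells in both libraries, with a median log2 ratio of 3.31 in fl/fl and 2.85 in +/+. Hsp90b1 (Grp94), a chaperone of secreted proteins, was at 8670 against 327 CPM in fl/fl and 6885 against 311 CPM in +/+. Hspa5 (BiP), which binds unassembled heavy chains, was at 1897 against 342 CPM in fl/fl and 2478 against 345 CPM in +/+. Of the translocon, signal peptidase and N-glycosylation genes, 31 of 36 were higher, and 1, the oligosaccharyltransferase subunit Stt3b, was lower (158 against 403 CPM in fl/fl, 205 against 471 CPM in +/+). ER-associated degradation and stress genes gave 13 of 17 higher, among them Derl3, a part of the retrotranslocation machinery, with a log2 ratio of 5.55 (5.10 to 6.03) in fl/fl and 6.27 (5.46 to 7.20) in +/+ cells. Vesicle traffic genes gave 15 of 24 and nuclear-encoded oxidative phosphorylation genes 21 of 30, with none lower in either list.

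**Figure D1:**
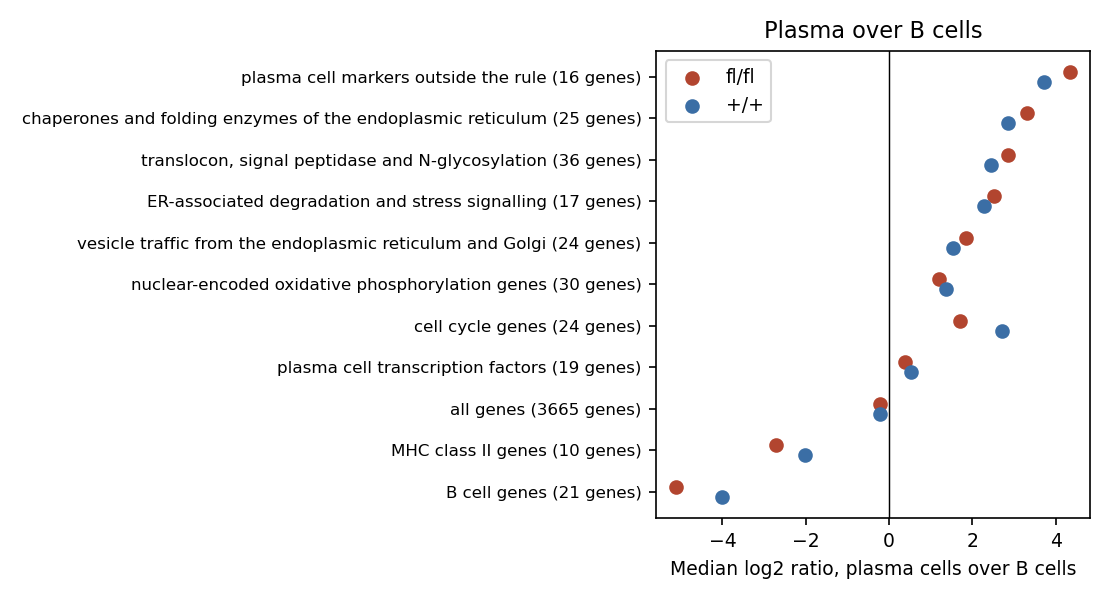
Median log2 ratio of each gene list, plasma cells over B cells of the same library, with fl/fl and +/+ as separate points and the number of measured genes in brackets. The secretory lists lie between 1.52 and 3.31 and the B cell genes at -5.11 in fl/fl and -4.01 in +/+, while the median over all genes is -0.21 in fl/fl and -0.22 in +/+.

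Promoters of 2 of these genes are shown because their genes are part of the secretory group and hold the ER stress response element, a motif bound by factors of the unfolded protein response. Each is from RefSeq's table of promoters (GRCm38.p6) and is written in the direction of the gene, and capitals mark the motif, spelled CCAAT, then 9 bases of any kind, then CCACG, and searched on both strands. The Hspa5 window is chr2:34771840-34772139 (plus strand) and the Derl3 window is chr10:75893148-75893447 (plus strand), where the match is on the opposite strand.
Hspa5: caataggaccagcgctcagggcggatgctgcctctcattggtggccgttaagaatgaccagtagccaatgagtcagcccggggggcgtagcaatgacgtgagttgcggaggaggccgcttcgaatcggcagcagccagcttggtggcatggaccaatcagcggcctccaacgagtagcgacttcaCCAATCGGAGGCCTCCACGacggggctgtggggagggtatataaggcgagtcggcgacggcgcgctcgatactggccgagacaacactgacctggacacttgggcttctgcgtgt
Derl3: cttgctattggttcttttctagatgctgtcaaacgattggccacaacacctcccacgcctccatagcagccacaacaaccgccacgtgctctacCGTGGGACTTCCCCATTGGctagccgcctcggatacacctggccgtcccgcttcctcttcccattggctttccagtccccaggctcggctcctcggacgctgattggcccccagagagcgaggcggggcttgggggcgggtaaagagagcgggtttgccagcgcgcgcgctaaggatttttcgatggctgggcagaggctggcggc
The motif was found in 7 of the 21 chaperone and folding genes with a promoter in the table (33.3%) and in 2 of 19 ER-associated degradation and stress genes (10.5%). It was found in 0 of 28 translocon and glycosylation genes and 0 of 25 vesicle traffic genes. Of all 32851 promoters in the table, 39 (0.119%) held it. A match is a description of the letters in this window.

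Plasma cells were a larger share of the fl/fl library. They made up 0.521% (0.380 to 0.697, exact Clopper-Pearson) of fl/fl and 0.128% (0.0616 to 0.236) of +/+ barcodes. Since both samples were sorted for Treg cells, the shares are those of cells carried through the sort and do not measure the spleen. B cells, chosen by their own rule, were also a larger share, at 12.5% (11.8 to 13.2) in fl/fl and 5.83% (5.32 to 6.37) in +/+. Among plasma and B cells together, plasma cells were 3.99% (2.93 to 5.31) in fl/fl and 2.16% (1.04 to 3.93) in +/+, and these intervals overlap. With 1 library a group, the genotype, the pool of mice and the sort cannot be told apart.

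The Mzb1 limit decided most of the count. A further 88 fl/fl and 35 +/+ barcodes met every other limit and had 0 or 1 Mzb1 UMI (49 and 39 of the fl/fl, 25 and 10 of the +/+ barcodes). They are called Mzb1-low cells here and serve as a second set of cells that the choice of plasma cells did not use, but come from the same 2 libraries and are no replicate. Just inside the limit, 19 of the 45 fl/fl and 4 of the 10 +/+ plasma cells had exactly 2 Mzb1 UMIs. The other limits took out few or none: 11 fl/fl barcodes with 7 to 48 Cd3 UMIs and 2 +/+ barcodes with 10 to 11 missed only the Cd3 limit, and none missed only the Jchain or the Xbp1 minimum. Jchain had a lowest, median and highest count of 128, 518 and 2639 UMIs in fl/fl plasma cells and of 55, 486 and 1182 UMIs in +/+ plasma cells.

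The depth behind these values was uneven. The fl/fl plasma cells had a median of 20843 UMIs (12172 to 66412) and the +/+ plasma cells 25171.5 (15893 to 81988), against 6286 in fl/fl and 5601 in +/+ T cells. Outside immunoglobulin genes this left 789017 UMIs in fl/fl and 272769 in +/+ plasma cells. A single +/+ cell with 81988 UMIs held 29.1% of the +/+ sum. Another, with 53165 UMIs, held 50625 of the 272769. Immunoglobulin genes made up 3.02% and 4.78% of the UMIs of these cells, the lowest shares among the +/+ plasma cells. No plasma cell barcode was shared by the 2 libraries, which shared 15 barcodes in all. Doublets were not called.

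Traces of other cells were counted in the plasma cells. The sum over 14 T cell markers had a median of 4 UMIs (0 to 21) in fl/fl and 5.5 (0 to 17) in +/+ plasma cells, with Cd8a, Cd8b1 and Themis at 0 in both. Most of these were Cd28, a costimulatory receptor that plasma cells also express, with 264 of the 280 UMIs in fl/fl and 66 of the 76 in +/+. The sum over 8 Treg markers had a median of 4 UMIs (0 to 20) in fl/fl and 6.5 (2 to 16) in +/+ plasma cells. In +/+ these were Ctla4, Tnfrsf18 and Capg only. The sum over 9 dendritic cell markers had a median of 25 UMIs (6 to 81) in fl/fl and 17 (9 to 39) in +/+. Of that list, Itgax, Xcr1, Clec9a and Siglech were at 0 in both. Of the 4155 neutrophil marker UMIs in fl/fl plasma cells, 99.6% lay in 1 cell, which also held 77.3% of the 335 monocyte and macrophage marker UMIs. The +/+ plasma cells held 7 neutrophil marker UMIs (0 to 3 a cell) and 42 monocyte and macrophage marker UMIs, all 42 in 1 cell. Among Mzb1-low cells, 1 of the +/+ cells held 337 of 355 neutrophil marker UMIs, against 25 in all fl/fl cells. Monocyte and macrophage markers summed to 228 UMIs in fl/fl (0 to 41 a cell) and 287 in +/+ (0 to 124), and B cell genes to a median of 13 UMIs (0 to 138) in fl/fl and 21 (4 to 260) in +/+ Mzb1-low cells. The part of these markers in the results was not tested.

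Foxp3 had 0 UMIs in the 45 fl/fl and in the 10 +/+ plasma cells, which allows a share of cells with a UMI of up to 6.67% in fl/fl and 30.0% in +/+, whereas 11.3% of fl/fl and 14% of +/+ T cells had a UMI. Kmt2d, the targeted gene, had 16 UMIs in 13 fl/fl and 4 UMIs in 4 +/+ plasma cells, a log2 ratio of 0.47 (-1.16 to 2.51). Counts of 3' ends do not show whether the floxed part is present. P2rx7, the purinergic receptor named in the study's title, had 1 UMI in the fl/fl and 0 in the +/+ plasma cells, so no ratio is given.

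The plasma cells were mostly Ighg2c in fl/fl and of mixed antibody classes in +/+. The class was taken from the constant gene with at least 20 UMIs and at least 2 times the next. Ighg2c, the constant gene of a class of IgG2, led in 25 of 45 fl/fl plasma cells (55.6%, 40.0 to 70.4) and in 2 of 10 +/+ plasma cells (20%, 2.52 to 55.6). Ighg2b led in 11 fl/fl cells (24.4%) and 2 +/+ cells (20%), and Ighm, the constant gene of IgM, in 6 fl/fl cells (13.3%) and 3 +/+ cells (30.0%). Igha, the constant gene of IgA, led in 1 of 45 fl/fl cells (2.22%, 0.0562 to 11.8) and in 3 of 10 +/+ cells (30.0%, 6.67 to 65.2). One fl/fl cell was Ighg3, none of the 55 was Ighg1, Ighe or Ighd, and 1 fl/fl cell had no class. Any IgG gene led in 82.2% (67.9 to 92.0) of fl/fl and 40.0% (12.2 to 73.8) of +/+ plasma cells. The intervals of the Ighg2c share overlap, as do those of the Igha and of the IgG share.

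The Mzb1-low cells, more numerous in both libraries, differed in the same direction for Ighg2c, Igha and Ighm. Ighg2c led in 51 of 88 fl/fl (58.0%, 47.0 to 68.4) and in 5 of 35 +/+ Mzb1-low cells (14.3%, 4.81 to 30.3). Igha led in 6 of 88 fl/fl (6.82%, 2.54 to 14.3) and in 13 of 35 +/+ (37.1%, 21.5 to 55.1), and Ighm in 10 of 88 fl/fl (11.4%, 5.59 to 19.9) and in 13 of 35 +/+ (37.1%, 21.5 to 55.1). For these 3 classes the intervals did not overlap. The intervals treat each cell as independent, but 17 of the 51 fl/fl Ighg2c cells carried the same pair of V genes, described below. The T cells of the same droplet runs, which do not make immunoglobulin, carried the same contrast at a low level: thinned to 2500 UMIs, 4.23% of fl/fl and 0.347% of +/+ T cells had an Ighg2c UMI, and 0.396% of fl/fl and 2.19% of +/+ T cells had an Igha UMI. Before thinning, Ighg2c was seen in 9.87% of fl/fl and 0.860% of +/+ T cells and Igha in 1.21% of fl/fl and 4.77% of +/+ T cells, with 42 fl/fl and 59 +/+ shallower T cells left out by the thinning.

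**Figure D2:**
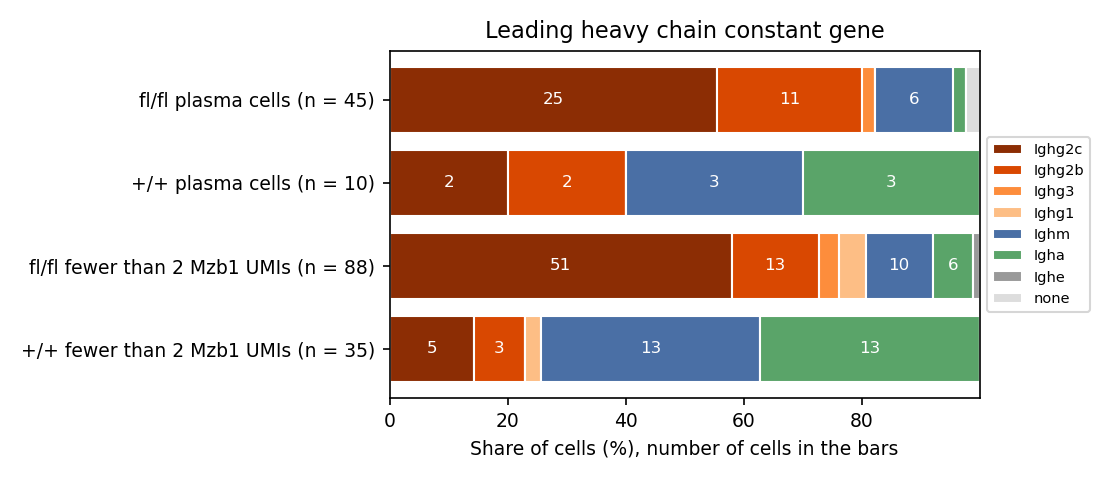
Share of cells, in percent, by leading heavy chain constant gene, for plasma cells and for Mzb1-low cells of each library, with the number of cells written in the larger segments. Ighg2c leads in 25 of 45 fl/fl and 2 of 10 +/+ plasma cells, and in 51 of 88 fl/fl and 5 of 35 +/+ Mzb1-low cells.

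Single cells were nearly pure for 1 class. The leading constant gene held a median of 99.3% of heavy chain constant UMIs in fl/fl and 99.8% in +/+ plasma cells, and at least 95% in 35 of 45 fl/fl and 9 of 10 +/+ cells. The lowest share was 77.4%, in an fl/fl cell with 66412 UMIs that held 1614 Ighg2b and 470 Ighm UMIs. The fl/fl cell without a class had 7910 Igkc UMIs but only 8 Ighg2c UMIs and 1 Ighg2b UMI, and its kappa V gene was Igkv19-93. Kappa led in 40 of 45 fl/fl (88.9%, 75.9 to 96.3) and 9 of 10 +/+ plasma cells (90.0%, 55.5 to 99.7). Lambda led in 5 fl/fl (11.1%, 3.71 to 24.1) and no +/+ plasma cell, and in 2 of 88 fl/fl and 2 of 35 +/+ Mzb1-low cells. The 1 +/+ cell without a light chain call had 2660 Igkc and 1954 Iglc2 UMIs.

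Counts over V gene segments showed a pair of segments shared by many fl/fl cells. A V gene was called with at least 5 UMIs and at least 2 times the next, over the heavy chain and the kappa chain segments, and both were called in 36 of 45 fl/fl and 9 of 10 +/+ plasma cells. Ighv1-85 with Igkv19-93, the segments printed above, was found in 8 of 45 fl/fl plasma cells (17.8%, 8.0 to 32.1), with 16 to 73 UMIs of Ighv1-85 and 20 to 50 UMIs of Igkv19-93 a cell. Among the fl/fl Mzb1-low cells it was found in 17 of 88 (19.3%, 11.7 to 29.1). It was found in none of the 35 +/+ cells of both kinds in which a pair could be called, which allows a share of up to 8.57%, against 25 of 108 such cells (23.1%, 15.6 to 32.2) in fl/fl. All 17 Mzb1-low cells and 6 of the 8 plasma cells of this pair were Ighg2c and the other 2 plasma cells Ighg2b. The barcodes of the 8 plasma cells differed from each other at 9 or more of 16 bases.

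Other pairs were repeated in few cells. Over plasma and Mzb1-low cells together, fl/fl had 72 different pairs in 108 cells, 12 of them in more than 1 cell, and +/+ had 33 in 35 cells, 2 of them (Ighv1-64 with Igkv3-2, Ighv8-8 with Igkv4-59) in 2 cells each. After Ighv1-85 with Igkv19-93 (25 cells) came Ighv1-47 with Igkv1-110 in 3 fl/fl cells. Among the B cells, Ighv1-85 held 3 of 233 heavy chain V UMIs in fl/fl and 1 of 107 in +/+, and Igkv19-93 held 18 of 662 kappa V UMIs in fl/fl and 18 of 286 in +/+. Counts per segment hold neither the junction nor the mutations, so cells with the same pair are not shown to share a rearrangement, and reads of similar segments can be counted under 1 of them. More sampled cells also give more chances of a repeat, and fl/fl had 133 cells against 45.

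**Figure D3:**
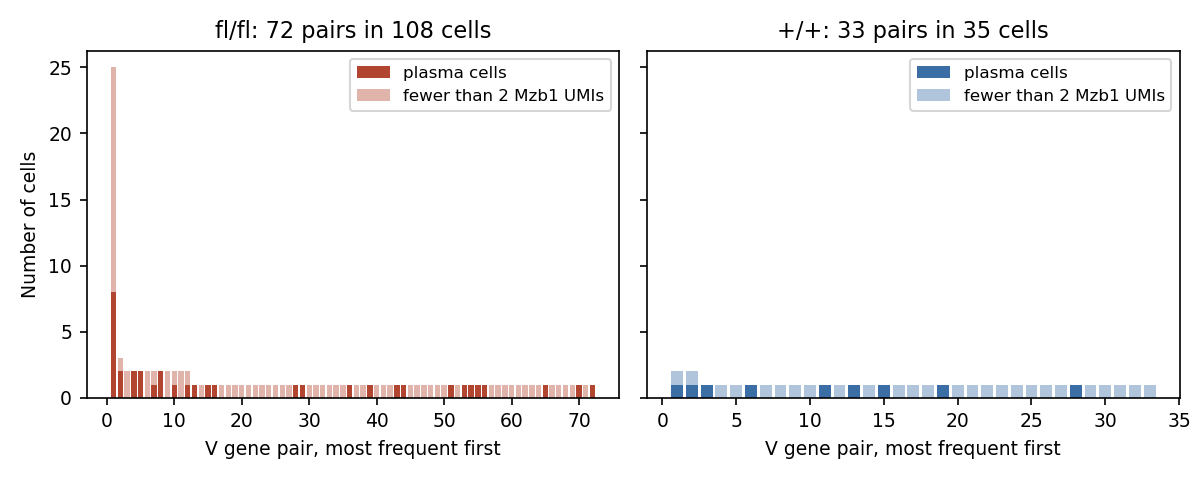
Number of cells for each pair of heavy and kappa V genes, ordered by frequency, in fl/fl on the left and +/+ on the right, with plasma cells in full colour and Mzb1-low cells paler. One fl/fl pair reaches 25 cells (8 plasma cells and 17 Mzb1-low cells), whereas no +/+ pair exceeds 2.

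The plasma cells fell into a range with and a range without many cell cycle transcripts. Over 8 cell cycle genes (Mki67, Top2a, Birc5, Cdk1, Ccnb2, Cenpf, Tpx2 and Ube2c), 28 fl/fl plasma cells had 0 to 3 UMIs and the other 17 had 9 to 153, with none between. In +/+, 5 cells had 0 or 1 UMI and 5 had 6 to 180. The gap was not empty among fl/fl Mzb1-low cells, where counts of 4, 5, 6 and 7 UMIs were found. With each cell thinned to 2500 UMIs, the expected number with at least 2 such UMIs was 13.4 of 45 fl/fl (29.7%) and 3.59 of 10 +/+ plasma cells (35.9%), and without thinning it was 20 of 45 (44.4%) in fl/fl and 5 of 10 (50%) in +/+. The exact intervals for the nearest whole numbers, 16.4% to 44.3% in fl/fl and 12.2% to 73.8% in +/+, overlap. Thinned Mzb1-low cells gave 13.1% (11.3 of 86) in fl/fl and 3.13% (1.10 of 35) in +/+, T cells 4.28% in fl/fl and 2.76% in +/+, and B cells 2.55% in fl/fl and 1.51% in +/+.

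Cells rich in cell cycle transcripts carried a smaller share of immunoglobulin. In fl/fl, immunoglobulin genes made up a median of 21.3% (6.21 to 45.6) of UMIs in the 17 cells with 5 or more cell cycle UMIs and 39.1% (16.1 to 59.8) in the 28 others, so the ranges overlap. In +/+ the shares were 12.4% (3.02 to 28.1) in 5 cells and 36.1% (34.5 to 41.1) in 5 cells, with no overlap. The UMIs of constant genes and Jchain differed less, with medians of 6626 and 7120.5 in the same fl/fl ranges, while UMIs outside immunoglobulin genes had medians of 26851 and 10813.5. Across cells, Spearman's rho between the immunoglobulin share and the cell cycle UMIs was -0.47 in fl/fl (n = 45) and -0.86 in +/+ (n = 10), given as a description, since the cells of a library share their preparation and both measures move with depth.

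**Figure D4:**
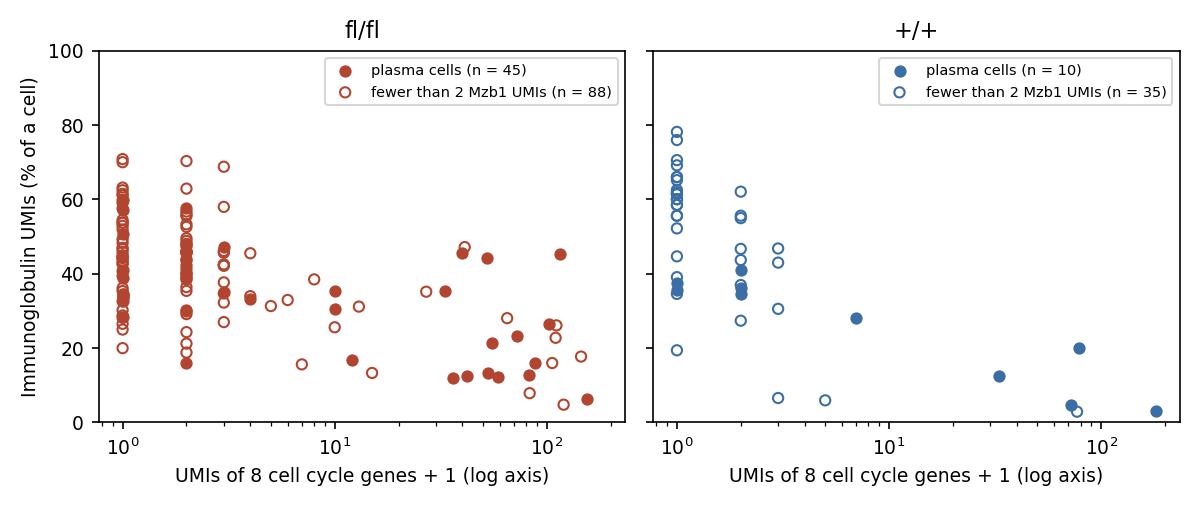
Immunoglobulin UMIs as a percentage of a cell's UMIs against the UMIs of 8 cell cycle genes plus 1 on a log axis, for fl/fl (left) and +/+ (right), with plasma cells filled and Mzb1-low cells open. Cells with many cell cycle UMIs lie low, and in fl/fl the median is 21.3% at 5 or more such UMIs and 39.1% below.

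Within the fl/fl library, plasma cell genes were at lower CPM in the cells rich in cell cycle transcripts. CPM are shares of the UMIs outside immunoglobulin genes, and these cells had more of those (median 26851 against 10813.5). A lower CPM here need not be a lower count per cell. Of 3393 measured genes, 19.4% were at least 1.5-fold higher and 10.9% lower in cells with 5 or more cell cycle UMIs than in the others. Of 18 plasma cell markers, 14 were lower and none higher, with a median log2 ratio of -0.86 against 0.13 over all genes. Eaf2, a transcription elongation factor, was at 1247 CPM in these and 2620 CPM in the other cells, and Sdc1 at 123 against 216 CPM. Ly6c2, a surface protein of the Ly6 family, was at 1827 against 6358 CPM. Summed over the 17 and the 28 cells, Eaf2 had 598 and 811 UMIs, Sdc1 59 and 67, and Ly6c2 876 and 1968. Of 11 glycolysis genes 8 were higher, among them Ldha, at 173 against 48.5 CPM. Of the 4 fl/fl plasma cells with 10 or more neutrophil or monocyte and macrophage UMIs, 3 are among these 17 cells, the 1 with 4138 neutrophil UMIs included, and 3 of 6 neutrophil and 2 of 2 monocyte and macrophage markers were higher there. Their part in these ratios was not tested. Since the ranges were set by cell cycle genes, the 29 of 29 cell cycle genes that were higher are no result.

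Between the libraries, 413 of 3357 measured genes were at least 1.5-fold higher in fl/fl plasma cells (12.3%) and 478 lower (14.2%), counting those that reached 50 CPM on either side, with an interval excluding equality and UMIs in at least 10% of the cells of the higher library. The calls rest on size and counting error alone. Scaled to all UMIs, immunoglobulin included, the same rule gave 180 higher and 745 lower, so the split depends on the scaling, which moves the median log2 ratio to -0.32 from -0.04. In Mzb1-low cells, 7.53% of 3598 measured genes were higher and 12.5% lower by the same rule. Of the 413 higher genes in plasma cells, 401 were also measured there, and 83 of these were higher, 25 lower and 278 on the same side of 0. Of the 478 lower genes 333 were measured there, where 43 were lower, 9 higher and 178 on the same side of 0. Those 43 of 333 are near the 12.5% that were lower over all measured genes of Mzb1-low cells. Many of the largest ratios rest on 1 cell, as given beside many of these genes.

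Among the 12 genes with the highest ratios, Slpi, Ly6c2, Pkd2l2 and Cped1 were higher in both sets of cells. Slpi, a secreted inhibitor of leukocyte proteases, had a lowest, median and highest count of 0, 118 and 950 UMIs in fl/fl and of 0, 3 and 240 UMIs in +/+ plasma cells. The highest +/+ cell held 81.6% of the +/+ Slpi UMIs, and the ranges overlap. Its log2 ratio was 3.64 (3.47 to 3.81) in plasma cells and 2.33 (2.24 to 2.42) in Mzb1-low cells, but -1.74 in B cells and -0.83 in T cells, where it was at 26.5 CPM or less. Ly6c2 had 0, 41 and 375 UMIs in fl/fl and 0, 8.5 and 60 UMIs in +/+ plasma cells, with UMIs in 44 of 45 fl/fl and 7 of 10 +/+ cells. Its log2 ratio was 2.78 (2.54 to 3.03) in plasma cells, 1.22 (1.10 to 1.35) in Mzb1-low cells, 1.74 in B cells and 0.39 in T cells. Pkd2l2, a polycystin-family channel gene, was at 237 against 29.3 CPM (log2 ratio 3.01) and Cped1 at 122 against 14.7 CPM (3.05), with log2 ratios of 1.90 and 1.55 in Mzb1-low cells. All +/+ plasma cell UMIs of Cped1 lay in 1 cell.

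The levels of Slpi and Ly6c2 were also taken within an antibody class. Slpi was at 13925 CPM in the 25 fl/fl Ighg2c plasma cells and at 1040 CPM in the 2 of +/+, and in the Mzb1-low Ighg2c cells at 20375 CPM (51 fl/fl cells) against 3915 CPM (5 +/+ cells). In Ighm plasma cells it was at 11048 CPM in 6 fl/fl and 13.4 CPM in 3 +/+ cells, but in Mzb1-low Ighm cells at 1441 CPM in 10 fl/fl and 2040.5 CPM in 13 +/+ cells. In these Mzb1-low cells 1 +/+ cell held 138 of the 204 +/+ UMIs, and the medians were 4.5 UMIs in fl/fl and 1 in +/+. In the Ighm plasma cells 1 fl/fl cell held 771 of the 1297 fl/fl UMIs. The Ighg2b cells were at 13142 CPM (11 fl/fl) against 2812 CPM (2 +/+) in plasma cells and at 15620.5 CPM (13 fl/fl) against 11583 CPM (3 +/+) in Mzb1-low cells. Of the +/+ Slpi UMIs, 1 cell held 240 of 253 in Ighg2b plasma cells and 1 held 286 of 304 in Mzb1-low Ighg2c cells. In Mzb1-low Igha cells Slpi was at 5992 CPM in 6 fl/fl and 836 CPM in 13 +/+ cells. There 1 fl/fl cell held 430 of the 448 fl/fl UMIs, and the medians were 0.5 UMIs in fl/fl and 3 in +/+ cells. In Igha plasma cells Slpi was at 0 CPM in 1 fl/fl cell and 79.4 CPM in 3 +/+ cells. Ly6c2 in fl/fl against +/+ Mzb1-low cells was at 4841 against 2756 CPM in Ighg2c cells, 4169 against 1800 CPM in Ighm cells and 1525 against 1000.1 CPM in Igha cells. In these Igha cells 1 fl/fl cell held 61 of the 114 fl/fl Ly6c2 UMIs. The medians there were 4 UMIs in fl/fl and 6 in +/+ cells. The part of the class mix in the ratios was not tested.

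The other 8 of the 12 highest genes did not repeat at 1.5-fold with an interval excluding equality in Mzb1-low cells. S100a9, a neutrophil calcium-binding protein, had 1536 UMIs in fl/fl and 3 in +/+ plasma cells, but 99.6% of the fl/fl UMIs lay in 1 cell, the one with neutrophil markers. Its Mzb1-low log2 ratio of -5.03 also rests on 1 cell, which held 145 of the 150 +/+ UMIs. Isg15, an interferon-induced ubiquitin-like protein, had a log2 ratio of 3.50 in plasma cells, on 98 fl/fl UMIs and 3 +/+ UMIs. Of the fl/fl UMIs, 34.7% lay in 1 cell. Isg15 was at -0.92 in Mzb1-low cells, where 1 cell held 87.0% of the +/+ UMIs. Tmem176b had log2 ratios of 2.59 in plasma cells and -0.75 in Mzb1-low cells. Herc4, a ubiquitin ligase, had 2.35 and -0.66. Hsd11b1, the enzyme that regenerates active glucocorticoid, had 4.20 and 0.24, Igtp, an interferon-inducible GTPase, 2.66 and 0.69, Dusp1, a MAP kinase phosphatase, 2.63 and 0.21, and Zbp1, a sensor of Z-form nucleic acid, 2.41 and 0.27. Of these, Hsd11b1 and Igtp each had UMIs in 1 of 10 +/+ plasma cells.

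Among the 12 genes with the lowest ratios, Apobec3, Ccr10, Irf8, St6galnac3 and Mafg were lower in both sets of cells. Apobec3, a cytidine deaminase that restricts retroviruses, had 0, 0 and 2 UMIs in fl/fl and 0, 5.5 and 17 UMIs in +/+ plasma cells, with a UMI in 16 of 45 fl/fl and 9 of 10 +/+ cells. Its log2 ratio was -3.28 (-4.15 to -2.48) in plasma cells, -3.26 in Mzb1-low cells, -3.83 in B cells and -2.85 in T cells, so it was lower in fl/fl in all 4 sets of cells. Irf8, a factor of the B cell and dendritic lineages, had 9 UMIs in 45 fl/fl and 18 UMIs in 10 +/+ plasma cells (log2 ratio -2.53), and was at -1.82 in Mzb1-low cells, where 1 cell held 62.9% of the +/+ UMIs. In Mzb1-low cells 10 of 12 B cell genes and 5 of 5 monocyte and macrophage markers were also lower, and the part of such transcripts in this ratio was not tested. St6galnac3, a sialyltransferase gene, was at -3.95 and -1.46, but 81.2% of its +/+ plasma cell UMIs lay in 1 cell. In Mzb1-low cells it had 19 fl/fl and 20 +/+ UMIs. Mafg, a small Maf factor, was at -2.53 and -1.39, on 7 fl/fl and 14 +/+ UMIs in plasma cells. In Mzb1-low cells it had 11 UMIs in fl/fl and 11 in +/+, of which 5 +/+ UMIs lay in 1 cell.

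Ccr10, the receptor that draws IgA plasma cells to mucosal tissue, lay mostly in Igha cells in the +/+ library. It had 12 UMIs in 6 of 45 fl/fl plasma cells and 43 UMIs in 5 of 10 +/+ plasma cells (log2 ratio -3.37, -4.43 to -2.42), and the Mzb1-low log2 ratio was -2.81 (-3.77 to -1.92). The 3 Igha plasma cells of +/+ held 40 of the 43 UMIs, 27 of them in 1 cell. The single Igha plasma cell of fl/fl held 3 of 12. Among Mzb1-low Igha cells, 2 of 6 fl/fl cells held 9 UMIs and 9 of 13 +/+ cells held 38 UMIs. In Mzb1-low Ighg2c cells 3 of 51 fl/fl and 0 of 5 +/+ cells had a UMI. Itgb7, the beta 7 integrin chain of gut homing, had 17 UMIs in fl/fl and 15 in +/+ plasma cells (log2 ratio -1.35). Of these 15 UMIs, 11 lay in 1 Igha cell. Itgb7 was at -2.37 in Mzb1-low cells. It was at 0.56 in plasma cells without those that held 10 or more neutrophil or monocyte and macrophage UMIs. Among Mzb1-low Igha cells it was in 5 of 6 fl/fl (281 CPM) and 10 of 13 +/+ cells (260 CPM).

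The other 7 of the 12 lowest genes were Rgs1, Ly6k, Wdcp, Aldh16a1, Tmco4, Irgm1 and Timm8a1, and none was 1.5-fold lower with an interval excluding equality in Mzb1-low cells. Rgs1, a regulator of G protein signalling, had 103 UMIs in +/+ plasma cells, 99.0% of them in 1 cell, against 11 in fl/fl. All 59 UMIs of Ly6k, 96.3% of those of Wdcp, 96.9% of those of Aldh16a1, 86.4% of those of Irgm1 and 80% of those of Tmco4 in +/+ also lay in 1 cell. Timm8a1, a mitochondrial import factor, had 24 UMIs in fl/fl and 45 in +/+, 40.0% of these in 1 cell.

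**Figure D5:**
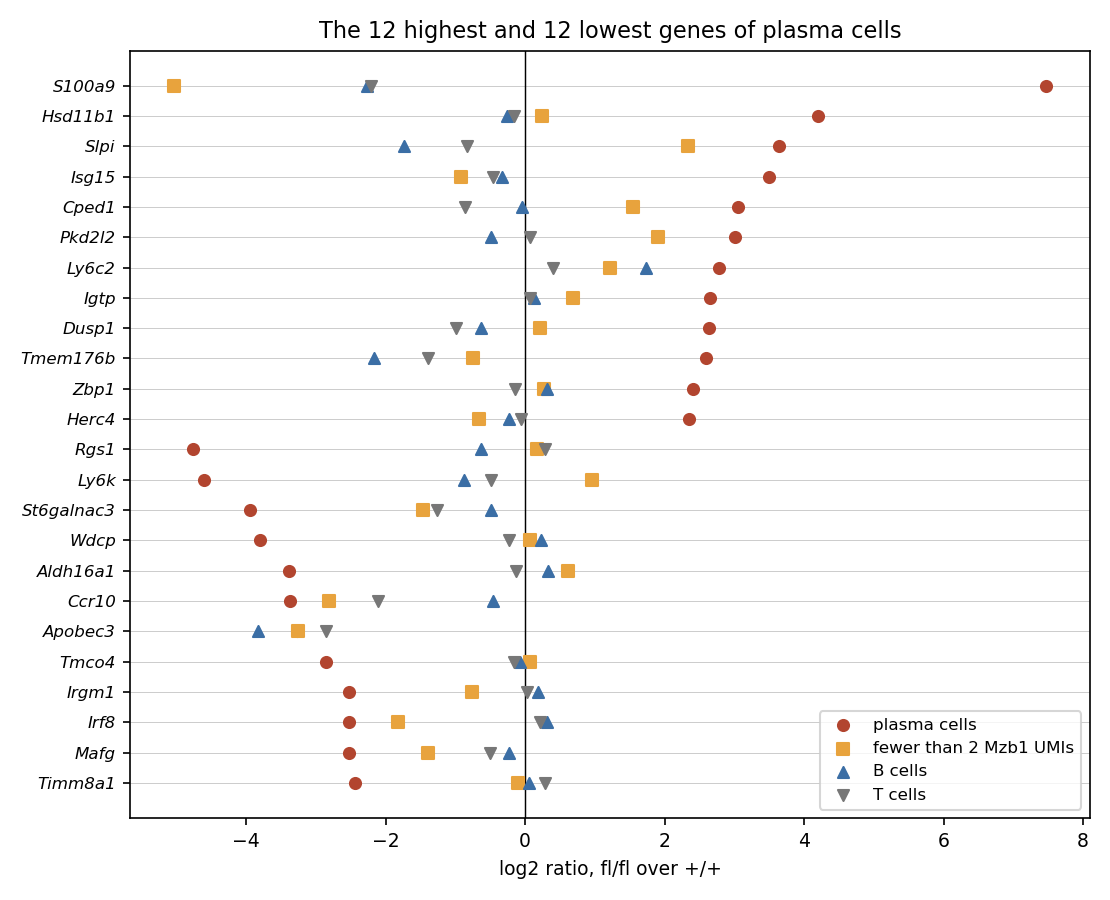
Log2 ratio, fl/fl over +/+, of the 12 highest and 12 lowest genes of plasma cells, in plasma cells, Mzb1-low cells, B cells and T cells. Plasma cell points lie far from 0 by the choice of genes, and the Mzb1-low points follow for Slpi (2.33), Pkd2l2 (1.90), Ly6c2 (1.22), Ccr10 (-2.81) and Apobec3 (-3.26) but not for S100a9 (-5.03) or Ly6k (0.96).

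Of the plasma cell markers outside the rule, 6 of 16 were higher in fl/fl plasma cells and none lower, with a median log2 ratio of 0.48 against -0.04 over all genes. In Mzb1-low cells 4 of 18 were higher and 2 lower (median 0.16). For this list and those below, the shares over all measured genes were 12.3% higher and 14.2% lower in plasma cells. In Mzb1-low cells they were 7.53% and 12.5%. Cells with 5 or more cell cycle UMIs were 17 of 45 fl/fl and 5 of 10 +/+ plasma cells. In fl/fl, their median log2 ratio over the other cells was -0.86 for these markers and 0.13 over all genes. It was -0.72 for degradation and stress, -0.61 for MHC class I, -0.68 for immediate-early and -0.37 for interferon genes. It was -0.28 for MHC class II and 1.36 for glycolysis genes. The part of this mix in the list ratios was not tested. Eaf2 had 7, 32 and 69 UMIs in fl/fl and 2, 14.5 and 46 UMIs in +/+ plasma cells, with a log2 ratio of 1.42 (1.20 to 1.65) in plasma cells and 1.20 (1.02 to 1.37) in Mzb1-low cells. Edem1, which routes misfolded glycoproteins to degradation, was at 1567 against 704 CPM (log2 ratio 1.15, and 0.69 in Mzb1-low cells). Slamf7, an adhesion receptor of plasma cells, was at 572 against 341 CPM (0.75, and 0.20 in Mzb1-low cells). Sdc1 was at 160 against 91.7 CPM (0.80, and 0.11 in Mzb1-low cells), and at -0.13 in the plasma cells with fewer than 5 cell cycle UMIs. Prdm1 (0.20), Irf4 (-0.07) and Tnfrsf17 (0.23) were not past the limit, and Tnfrsf17 was at -2.18 in Mzb1-low cells.

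The median log2 ratios of the secretory lists lay on the fl/fl side, under the limit. Over all measured genes, 12.3% were higher in plasma cells and 7.53% in Mzb1-low cells. Chaperones and folding enzymes gave 5 of 25 higher and none lower in plasma cells (median log2 ratio 0.34), and 7 higher and 1 lower of 24 in Mzb1-low cells (0.40). Translocon and glycosylation genes gave 10 of 36 higher and none lower (0.31), and 6 higher and 1 lower of 36 in Mzb1-low cells (0.27). ER-associated degradation and stress genes gave 3 higher and 1 lower of 18 (0.43), and 4 of 17 higher in Mzb1-low cells (0.14). Eif2ak3, the stress kinase PERK, was at 243 against 99.0 CPM, with log2 ratios of 1.30 (0.71 to 1.94) in plasma cells and 1.03 in Mzb1-low cells. Ssr4, a translocon-associated subunit, was at 0.93 in plasma cells and 0.01 in Mzb1-low cells. Vesicle traffic genes gave 4 higher and 1 lower of 26 in plasma cells. Those 4 of 26 and the 3 of 18 degradation and stress genes are near the share over all genes.

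Of the survival and niche genes, 6 were higher and 2 lower of 21, and 2 higher and 8 lower of 23 in Mzb1-low cells. Bcl2l11 (Bim), which promotes cell death, was at 238 against 69.7 CPM (log2 ratio 1.77, 1.09 to 2.54) in plasma cells and at 0.93 (0.52 to 1.36) in Mzb1-low cells. Mcl1, the survival protein that plasma cells depend on, was at 801 against 356 CPM (1.17) and at 0.31 in Mzb1-low cells. Of the 12 measured MHC class I genes, 7 were higher and none lower in plasma cells (median 0.75), and 3 were higher and none lower in Mzb1-low cells (0.27). H2-T22 was at 1.60 and 0.97 in these sets, and Bst2 (tetherin), which holds budding viruses at the membrane, at 1.5 (1.22 to 1.80) and 1.05 (0.82 to 1.28). Psip1, a chromatin reader that joins menin and Kmt2a, was the 1 of 5 measured genes of that list past the limit, at 1.07, and was at 1.28 in Mzb1-low cells, but at -0.33 in thinned plasma cells.

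Lists that differed in plasma cells but not alike in Mzb1-low cells were those of the interferon response, early response, cell cycle and glycolysis. Interferon response genes gave 11 higher and 1 lower of 14 in plasma cells (median log2 ratio 1.49), against 5 higher and 3 lower of 17 in Mzb1-low cells (median -0.0034). Immediate-early and dissociation stress genes gave 11 higher and 2 lower of 20 (0.80), against 3 higher and 5 lower of 23 (-0.06), and Junb, an AP-1 subunit, was at 1.36 and -0.58. Cell cycle genes gave 11 lower and none higher of 28 (-0.46), among them Tuba1b (-1.22), against 11 higher and none lower of 17 (1.23). Glycolysis genes gave 7 lower and none higher of 11 (-0.84), against none either way of 11 (0.04), and 45.2% of the +/+ UMIs of Ldha (log2 ratio -1.76) lay in 1 cell.

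MHC class II genes gave 3 lower and none higher of 6 in plasma cells and 6 lower of 6 in Mzb1-low cells, where H2-Aa was at -1.26 and H2-Ab1 at -1.17. In the same Mzb1-low cells 10 of 12 B cell genes (median log2 ratio -0.998), 5 of 5 monocyte and macrophage markers (-1.82) and 2 of 2 NK cell markers were lower, and their part was not tested. One cell held 66.1% of the +/+ plasma cell UMIs of H2-Aa, and without the 4 fl/fl and 1 +/+ cells with the most UMIs its log2 ratio in plasma cells was 0.16. Hspa8, a constitutive heat shock protein, was at -0.94 and -0.91. Of the purinergic genes, Adk and Entpd1 were the 2 of 3 past the limit, at 1.47 and 0.94 in plasma cells and -0.14 and 0.09 in Mzb1-low cells. In plasma cells with fewer than 5 cell cycle UMIs, Entpd1 was at -0.13.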

How the data were processed

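Single-cell RNA was measured with a 10x Genomics 3' v3.1 kit in 2 libraries. The authors deposited raw UMI counts per gene and barcode for 31253 genes. Per the submitters' processing notes, the tools were fastp, Cell Ranger 7.1.0 and Seurat 4.1.1, and the builds mm10 and GRCm38; which step used each is not given in the sources used here. Here counts were summed over the cells of a set and scaled to 1000000 UMIs outside 394 immunoglobulin genes, with exact conditional binomial intervals for ratios and Clopper-Pearson intervals for shares (Python 3.11.15, numpy 2.4.6, scipy 1.17.1, pandas 2.3.3, matplotlib 3.10.9). T cells had at least 2 Cd3 UMIs, no Cd79a or Ms4a1 UMI and fewer than 5 Jchain UMIs. Doublets were not called. Expected shares under thinning to 2500 UMIs are exact hypergeometric sums, used in place of a random draw after draws were seen to vary. Alternatives changed the scaling, floor, ratio, limits and cells used. The calling of genes was tested on simulated counts, drawn for all cells from 1 shared profile apart from the genes set to differ. Its limit on false calls was changed after a first failure. Differences between cells were left out of it, so it cannot show how often calls that rest on 1 cell are false. A floor of 3 counts was used for shares of 0. Named genes were the 12 highest and 12 lowest that kept direction with cells weighted alike and thinned, fixed genes, and up to 4 a list each way, of which a part is printed. The members, lists and tests were chosen with earlier results of these data known.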

Additional observations from a re-analysis of the deposited data

Results flagged for a closer look

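There were 5 genes that went past the limit in opposite directions in the plasma cells and the T cells of the same libraries (log2 ratios, fl/fl over +/+). The difference between the cell types was not tested, since each genotype has 1 library. S100a9 was at 7.47 in plasma cells, where 1 cell held 99.6% of the fl/fl UMIs, and at -2.21 in T cells. Dusp1 was at 2.63 in plasma cells and -0.99 in T cells. Adk, which phosphorylates adenosine, was at 1.47 in plasma cells and -1.44 in T cells. Junb was at 1.36 in plasma cells and -0.67 in T cells. Capg, an actin-capping protein, was at 0.91 in plasma cells and -0.80 in T cells. In Mzb1-low cells these genes were at -5.03 (S100a9, with 145 of 150 +/+ UMIs in 1 cell), 0.21 (Dusp1), -0.14 (Adk), -0.58 (Junb) and -1.26 (Capg).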

How the results depend on the processing

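Ratios rest on few cells, 10 in +/+. Of these, 1 held 29.1% of the UMIs used and another held 50625 of the 272769. Counts of called genes moved with most choices. Without the Mzb1 minimum the share was 1.54% in fl/fl and 0.578% in +/+. Against 413 genes higher and 478 lower, scaling by all UMIs gave 180 and 745, thinned cells 45 and 142, a ratio of 2 gave 212 and 248, cells without T cell receptor or Cd3 UMIs 178 and 318, and cells with fewer than 5 cell cycle UMIs 111 and 305. Genes higher numbered 269 with a Jchain minimum of 100, 269 without the 4 fl/fl and 1 +/+ cells with the most UMIs, and 256 without the Mzb1 minimum. The cycling share was 44.4% in fl/fl unthinned, and 10.4% in +/+ without the Mzb1 minimum. Some log2 ratios changed sign, and the cause was not tested. With a Jchain minimum of 100 these were Aldh16a1 1.14, Rgs1 1.43, H2-Aa 0.29 and Wdcp 0.47. Without those cells they were H2-Aa 0.16, S100a9 -0.37, Aldh16a1 1.40, Rgs1 1.77 and Wdcp 0.31. In thinned cells they were Mzb1 -0.32, Sdc1 -0.10 and Psip1 -0.33. Without cells holding 10 or more neutrophil or monocyte and macrophage UMIs they were Itgb7 0.56 and S100a9 -0.61. In cells with fewer than 5 cell cycle UMIs they were H2-Aa 0.39, Entpd1 -0.13, Sdc1 -0.13, Wdcp 0.30, Rgs1 0.52, S100a9 -1.87 and Mzb1 -0.15. Without the Mzb1 minimum they were Junb -0.23, Herc4 -0.058 and Capg -0.52. Without T cell receptor or Cd3 UMIs they were S100a9 -2.38, H2-Ab1 0.53, Sdc1 -0.16, Capg -0.061, Wdcp 0.37, Rgs1 0.52, H2-Aa 0.69 and Mzb1 -0.040. The Mzb1, neutrophil, cell cycle and V gene pair alternatives were chosen after seeing the data, as were the genes recomputed, a part of the 121 named by rule. No paired analysis was possible because each genotype has 1 library.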
